A study of Arabidopsis thaliana with 18 samples.

Results

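Transcripts of 7 nuclear genes of Arabidopsis thaliana, widely used as markers of mitochondrial dysfunction, were followed across 6 groups of seedlings: AT2G21640 (UPOX), AT5G09570 (AT12CYS-2), AT2G32020, AT2G41730, AT5G43450, AT5G14730 and AT1G05060. They were chosen by gene identity, but with earlier results of these data known. Each of the 7 was read by a probe set naming that gene alone, out of 13355 genes named on the array. RNA was hybridised to 18 Affymetrix ATH1 arrays, 3 per group, which read each transcript by a probe set of short oligonucleotides in 1 colour. The values are normalized intensities on a linear scale, as the authors deposited them.

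The groups were rao1-1 with antimycin A, rao1-2 with antimycin A, wild type with antimycin A, rao1-1 mock, rao1-2 mock and wild type mock. The wild type (WT) is the line Col-Luc, also written Col:LUC, a Columbia line with a luciferase reporter. The rao1 mutants (for regulator of alternative oxidase) carry 2 mutant alleles, and the series is about CDKE;1, a kinase of the Mediator complex, which connects transcription factors with RNA polymerase II. Seedlings 14 days old, on Gamborg B5 medium with 3% sucrose, received a spray of antimycin A at 50 µM or of deionised water (mock), and whole green tissue was collected 3 h later. Replicates carry numbers, but nothing says that they were grown separately, so the p-values cover the spread between these arrays alone, and that spread may be technical.

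Antimycin A blocks electron transfer through respiratory complex III. Plant cells answer such a block by sending signals from mitochondria to the nucleus, called retrograde signalling, and nuclear genes for alternative respiration, transport and detoxification are then transcribed. Genes induced by many different mitochondrial defects make up the mitochondrial dysfunction response, and the marker genes described here are among them. UPOX encodes a mitochondrial protein named for its up-regulation by oxidative stress. AT12CYS-2 encodes a small mitochondrial protein with paired cysteine motifs, AT2G32020 an acetyltransferase of the GNAT family, and AT5G43450 an oxygenase of the family that uses iron and 2-oxoglutarate. For AT2G41730, AT5G14730 and AT1G05060 no molecular role is given here.

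The mean correlation of an array with the other arrays of its group, across probe sets, was 0.985 to 0.995 and was lowest for replicate 1 of rao1-2 mock. Markers of green tissue were present as labelled: all 4 of the 7 listed genes that were measured lay above the background limit on all 18 arrays, with RCA, the activase of Rubisco, at 24570 to 30240. Of 6 listed root markers 3 were measured, and EXPA7 and EXPA18, expansins of root hair cells, lay under the limit on every array. PYK10, a root beta-glucosidase, lay above it on all 18 arrays, at 54.6 to 1466, with the lowest value on replicate 3 of rao1-2 mock. The background limit is an intensity of 19.8, the least dense point between the dim and the bright mode of all values. Where all 3 arrays of a group lay under it, the fold was taken against the limit and is written with "at least".

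**Figure D1:**
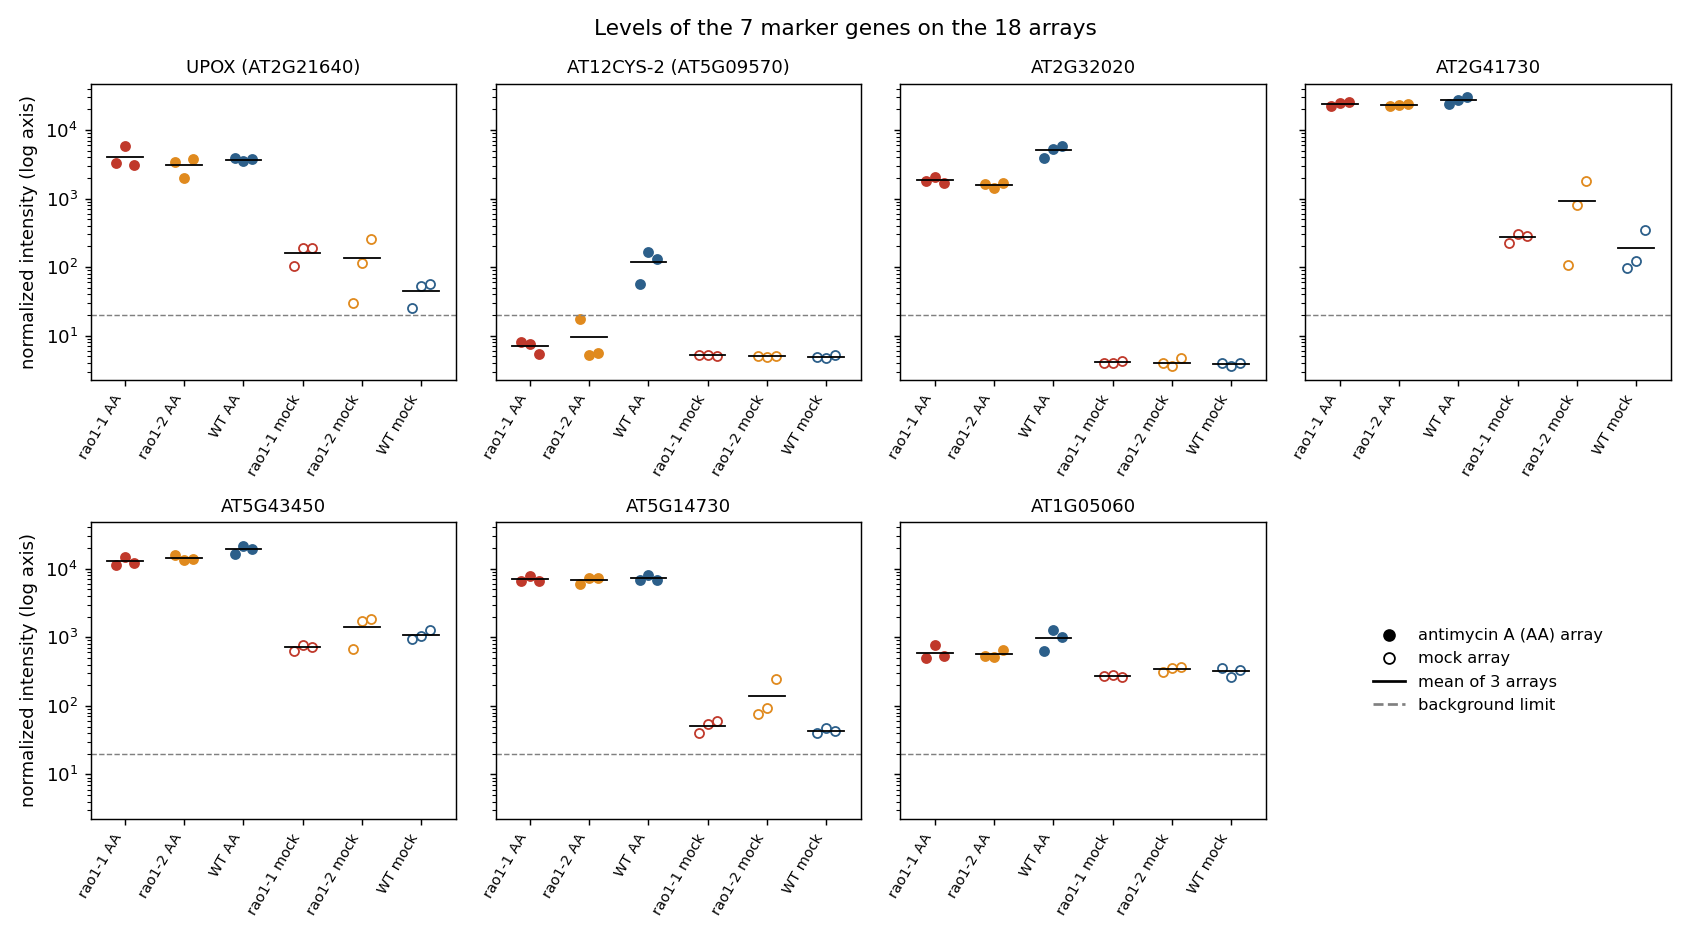
Normalized intensity (log axis) of the 7 marker genes on each of the 18 arrays, by group, with filled points for antimycin A (AA), open points for mock, a bar at the mean of 3 arrays and a dashed line at the background limit of 19.8. Antimycin A arrays lie above mock arrays in every genotype for the 6 genes other than AT12CYS-2, which passes the limit on the WT antimycin A arrays only; AT2G32020 is lower on the mutant than on the WT antimycin A arrays.

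Antimycin A raised all 7 marker genes in WT, and 6 of the 7 in each mutant. AT12CYS-2 was the member not called in either mutant. A gene was called at an adjusted p under 0.05 in limma's test, with Benjamini-Hochberg adjustment over all 22746 probe sets, and over all of them 15.8% were called higher after antimycin A in rao1-1, 15.6% in rao1-2 and 14.4% in WT. The members' median log2 change was 4.66 in rao1-1, 4.93 in rao1-2 and 6.43 in WT, against 0.04, 0.03 and -0.00 over all probe sets, and these member medians were the same with every value under the background limit set to it. For the 6 members other than AT12CYS-2, all antimycin A arrays lay above all mock arrays in every genotype, as they did for 31.7% of all probe sets in rao1-1, 23.6% in rao1-2 and 18.1% in WT. AT12CYS-2 had this separation above the background limit in WT alone. In RNA from whole tissue, a change in the RNA of each cell and a change in the share of cells of one type cannot be told apart.

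UPOX reached similar levels after antimycin A in all 3 genotypes. It read 3288, 5836 and 3085 in rao1-1, 3390, 2006 and 3740 in rao1-2, and 3846, 3475 and 3715 in WT with antimycin A. Under mock it read 102.2, 187.0 and 191.6 in rao1-1, 30.08, 114.5 and 260.8 in rao1-2, and 25.71, 52.57 and 57.40 in WT. The antimycin A arrays of the genotypes overlapped, while all 3 rao1-1 mock arrays lay above all 3 WT mock arrays and the rao1-2 mock arrays were spread across the WT range and above it. UPOX was 25.3-fold higher with antimycin A than with mock in rao1-1 (log2 change 4.66 ± 0.60 SE, adjusted p = 3.19e-05), 30.5-fold higher in rao1-2 (4.93 ± 0.60, adjusted p = 1.7e-05) and 86.2-fold higher in WT (6.43 ± 0.60, adjusted p = 1.77e-06), by limma.

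AT12CYS-2 rose above the background limit in WT with antimycin A and on no other array. It read 8.10, 7.667 and 5.356 in rao1-1, 17.76, 5.154 and 5.589 in rao1-2, and 57.36, 165.7 and 132.9 in WT with antimycin A. Under mock all 9 arrays lay between 4.774 and 5.308. The 3 WT antimycin A arrays were above the background limit and the other 15 arrays below it, among them the highest mutant array at 17.76. AT12CYS-2 was at least 5.45-fold higher with antimycin A than with mock in WT (log2 change 4.45 ± 0.42 SE, limma adjusted p = 1.85e-06). In rao1-1 the log2 change was 0.41 ± 0.42 (adjusted p = 0.433) and in rao1-2 it was 0.67 ± 0.42 (adjusted p = 0.228), between values under the limit on all arrays, so that no fold is given.

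AT2G32020 was bright in every genotype with antimycin A and under the background limit in every genotype under mock. With antimycin A it read 1772, 2070 and 1694 in rao1-1, 1609, 1403 and 1661 in rao1-2, and 3851, 5303 and 5911 in WT. Under mock all 9 arrays lay between 3.573 and 4.683, under the limit. Every mutant antimycin A array was below every WT antimycin A array. The gene was at least 92.7-fold higher with antimycin A than with mock in rao1-1 (log2 change 8.81 ± 0.14 SE, adjusted p = 1.16e-13), at least 78.3-fold higher in rao1-2 (8.59 ± 0.14, adjusted p = 8.86e-14) and at least 249.2-fold higher in WT (10.32 ± 0.14, adjusted p = 1.36e-14).

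AT5G43450, the oxygenase family gene, was bright under both treatments. With antimycin A it read 11248, 14986 and 12003 in rao1-1, 16046, 13449 and 14071 in rao1-2, and 16567, 21448 and 19535 in WT. Under mock it read 635.7, 776.7 and 729.6 in rao1-1, 670.0, 1703 and 1819 in rao1-2, and 941.2, 1044 and 1262 in WT. All antimycin A arrays of both mutants lay below the WT antimycin A arrays. The gene was 17.8-fold higher with antimycin A than with mock in rao1-1 (log2 change 4.15 ± 0.28 SE, adjusted p = 1.19e-07), 11.4-fold higher in rao1-2 (3.50 ± 0.28, adjusted p = 5.47e-07) and 17.8-fold higher in WT (4.15 ± 0.28, adjusted p = 1.06e-07).

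AT2G41730 was among the brightest probe sets after antimycin A, at percentile 99.8 on the array where it ranked lowest. With antimycin A it read 22191, 24620 and 25761 in rao1-1, 22020, 23342 and 23707 in rao1-2, and 24286, 27772 and 30144 in WT. Under mock it read 226.6, 303.3 and 288.0 in rao1-1, 108.6, 817.1 and 1811 in rao1-2, and 98.17, 121.0 and 347.6 in WT. The rao1-2 antimycin A arrays lay just below the WT ones and the rao1-1 arrays overlapped them, while the mock arrays overlapped between genotypes. The gene was 89.3-fold higher with antimycin A than with mock in rao1-1 (log2 change 6.48 ± 0.73 SE, adjusted p = 1.07e-05), 42.3-fold higher in rao1-2 (5.40 ± 0.73, adjusted p = 4.18e-05) and 170.1-fold higher in WT (7.41 ± 0.73, adjusted p = 2.95e-06). Its probe set carries the array maker's suffix for probes that may also match other transcripts, so its signal may not come from this gene alone.

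AT5G14730 was raised to nearly the same level in the 3 genotypes. With antimycin A it read 6608, 7815 and 6572 in rao1-1, 5949, 7226 and 7443 in rao1-2, and 6797, 8200 and 6896 in WT. Under mock it read 39.58, 54.05 and 60.41 in rao1-1, 75.44, 92.73 and 245.2 in rao1-2, and 39.88, 48.32 and 42.88 in WT. All 3 rao1-2 mock arrays lay above all other mock arrays, while the antimycin A arrays overlapped. The gene was 138-fold higher with antimycin A than with mock in rao1-1 (log2 change 7.11 ± 0.32 SE, adjusted p = 2.72e-09), 57.1-fold higher in rao1-2 (5.84 ± 0.32, adjusted p = 1.49e-08) and 166.9-fold higher in WT (7.38 ± 0.32, adjusted p = 1.52e-09).

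AT1G05060 changed least of the 7 in WT. With antimycin A it read 498.1, 768.8 and 530.8 in rao1-1, 526.3, 519.6 and 653.3 in rao1-2, and 623.6, 1263 and 1021 in WT. Under mock it read 272.6, 286.0 and 264.6 in rao1-1, 313.1, 357.3 and 366.4 in rao1-2, and 361.3, 262.2 and 334.9 in WT. Mock arrays of WT spanned those of rao1-1 and most of those of rao1-2, and the lowest WT antimycin A array lay within the range of both mutants. The gene was 2.14-fold higher with antimycin A than with mock in rao1-1 (log2 change 1.10 ± 0.22 SE, adjusted p = 0.00124), 1.63-fold higher in rao1-2 (0.71 ± 0.22, adjusted p = 0.0191) and 2.94-fold higher in WT (1.56 ± 0.22, adjusted p = 7.75e-05). Its rao1-2 call was lost with the arrays centred on the hybridisation controls (0.54, adjusted p = 0.0594) or on the poly(A) controls (0.44, adjusted p = 0.1), and without replicate 3 of rao1-2 with antimycin A (0.60, adjusted p = 0.0783) or replicate 1 of rao1-2 mock (0.64, adjusted p = 0.0642).

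**Figure D2:**
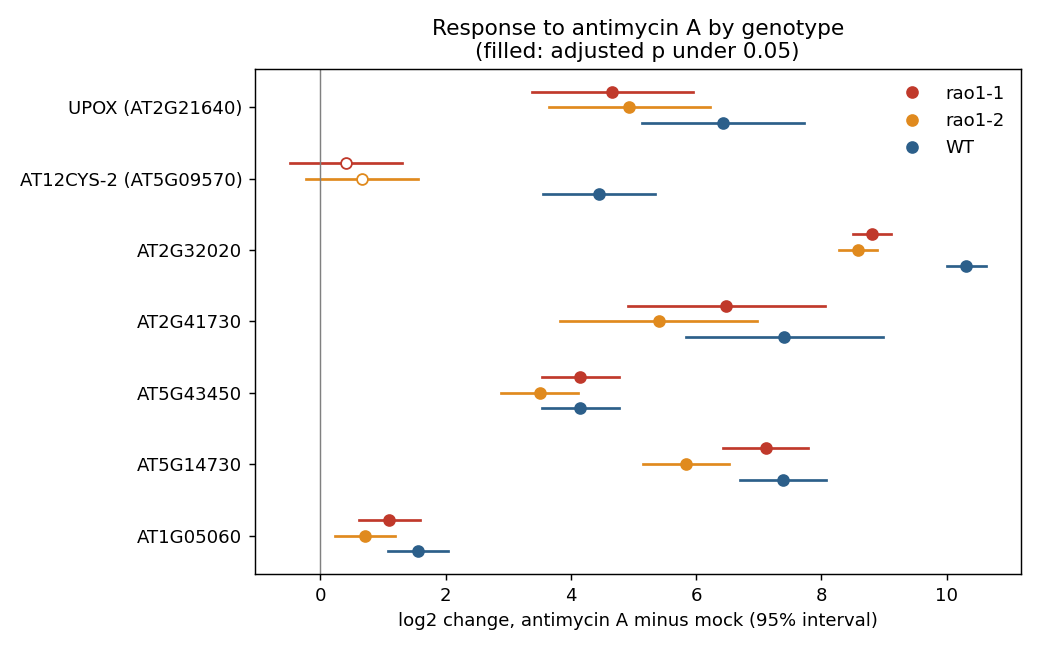
Log2 change with antimycin A over mock for each marker gene in rao1-1, rao1-2 and WT, with 95% intervals from limma and filled points at an adjusted p under 0.05. AT12CYS-2 is open at 0.41 in rao1-1 and 0.67 in rao1-2 and filled at 4.45 in WT; its values and the mock values of AT2G32020 under the background limit enter as measured, so that these changes are not fold estimates.

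Control and tissue marker signals differed between the treatments too. Mean signal of the probe set for 25S ribosomal RNA was 14.20, 14.03 and 13.65 on the log2 scale in rao1-1, rao1-2 and WT with antimycin A, and 12.96, 12.98 and 12.81 in the same genotypes under mock. The 27 poly(A) control probe sets averaged 6.54, 6.54 and 6.51 with antimycin A, and 6.33, 6.27 and 6.29 under mock. The 18 hybridisation controls averaged 8.83 in rao1-1, 8.81 in rao1-2 and 8.77 in WT with antimycin A, and 8.61, 8.64 and 8.77 under mock, a difference in the mutants that was not seen in the WT means. The summed level of the 4 green-tissue markers was 59090 to 70980 on the 9 antimycin A arrays and 67530 to 86000 on the 9 mock arrays. In fits with arrays centred on the poly(A) or the hybridisation controls, all 7 marker genes were still called in WT. The only marker gene response whose call changed was that of AT1G05060 in rao1-2, as given above. The part of the ribosomal RNA and tissue marker shifts in the changes of the marker genes was not tested.

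Between the mutants and WT after antimycin A, AT12CYS-2 and AT2G32020 fell in both mutants, and the other 5 members were not called. Over all probe sets 1.49% were called lower in rao1-1 than in WT with antimycin A, and 1.12% in rao1-2. By an unadjusted limma p under 0.05 there were 3 of 7 members in each mutant, against 17.9% and 14.4% of all probe sets. The members' median log2 difference was -0.59 in rao1-1 and -0.40 in rao1-2, against 0.06 and 0.02 over all probe sets. Both mutants are compared with the same 3 WT arrays.

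AT12CYS-2 averaged 7.04 ± 1.48 in rao1-1, 9.50 ± 7.16 in rao1-2 and 119 ± 55.5 in WT with antimycin A (SD, n = 3 arrays each). It was at least 5.45-fold lower than in WT in both mutants, with a log2 difference of -3.96 ± 0.42 in rao1-1 (limma adjusted p = 0.000271) and -3.76 ± 0.42 in rao1-2 (adjusted p = 0.000512). These errors and p-values rest on a spread shared by all 6 groups. With antimycin A the SD of log2 intensity was 0.324 in rao1-1, 0.999 in rao1-2 and 0.807 in WT. Under mock, below the background limit, it was only 0.026, 0.033 and 0.068, so the shared spread understates that of the groups compared. The groups did not overlap, and the lowest WT array at 57.36 stood well above the highest mutant array.

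AT2G32020 averaged 1845 ± 199 in rao1-1, 1557.5 ± 137 in rao1-2 and 5022 ± 1058 in WT with antimycin A (SD, n = 3 arrays each). The mutants thus kept part of the WT level, 37.2% of it in rao1-1 (95% interval 30.06% to 46.03%) and 31.4% in rao1-2 (25.4% to 38.9%). These intervals rest on a spread shared by all 6 groups. With antimycin A the SD of log2 intensity was 0.15 in rao1-1, 0.13 in rao1-2 and 0.32 in WT. Under mock, below the background limit, it was 0.07, 0.20 and 0.10 in the same order. The log2 difference from WT was -1.43 ± 0.14 in rao1-1 (limma adjusted p = 0.00017) and -1.67 ± 0.14 in rao1-2 (adjusted p = 7.13e-05). With only the arrays of the 2 groups compared in the fit, the rao1-1 call of AT2G32020 was lost (adjusted p = 0.0654), as was the rao1-2 call of AT12CYS-2 (adjusted p = 0.0714).

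The other 5 members were measured on the same arrays without a called difference. AT5G43450 stood at 66.3% of the WT level in rao1-1 (log2 difference -0.59, adjusted p = 0.292) and 75.9% in rao1-2 (-0.40, adjusted p = 0.626), with no overlap of arrays in either. AT1G05060 stood at 63.2% in rao1-1 (-0.66, 95% interval -1.14 to -0.18, adjusted p = 0.134) and 60.6% in rao1-2 (-0.72, adjusted p = 0.117). Without replicate 1 of WT with antimycin A, its dimmest WT array, AT1G05060 was called in rao1-1 (-0.95, adjusted p = 0.0157) and in rao1-2 (-1.01, adjusted p = 0.0144). UPOX (0.08 and -0.32 in rao1-1 and rao1-2), AT2G41730 (-0.18 and -0.25) and AT5G14730 (-0.06 and -0.09) had differences closer to 0, all with adjusted p of 0.889 or more. Their 95% intervals reached -1.20 to 1.37 for UPOX and -1.75 to 1.40 for AT2G41730 in rao1-1, so differences within these bounds are not excluded. These intervals too rest on the spread shared by all 6 groups, the mock groups among them. For AT2G41730 the SD of log2 intensity was 0.11 in rao1-1 and 0.16 in WT with antimycin A. Under mock it was 0.23 in rao1-1, 2.09 in rao1-2 and 0.98 in WT.

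**Figure D3:**
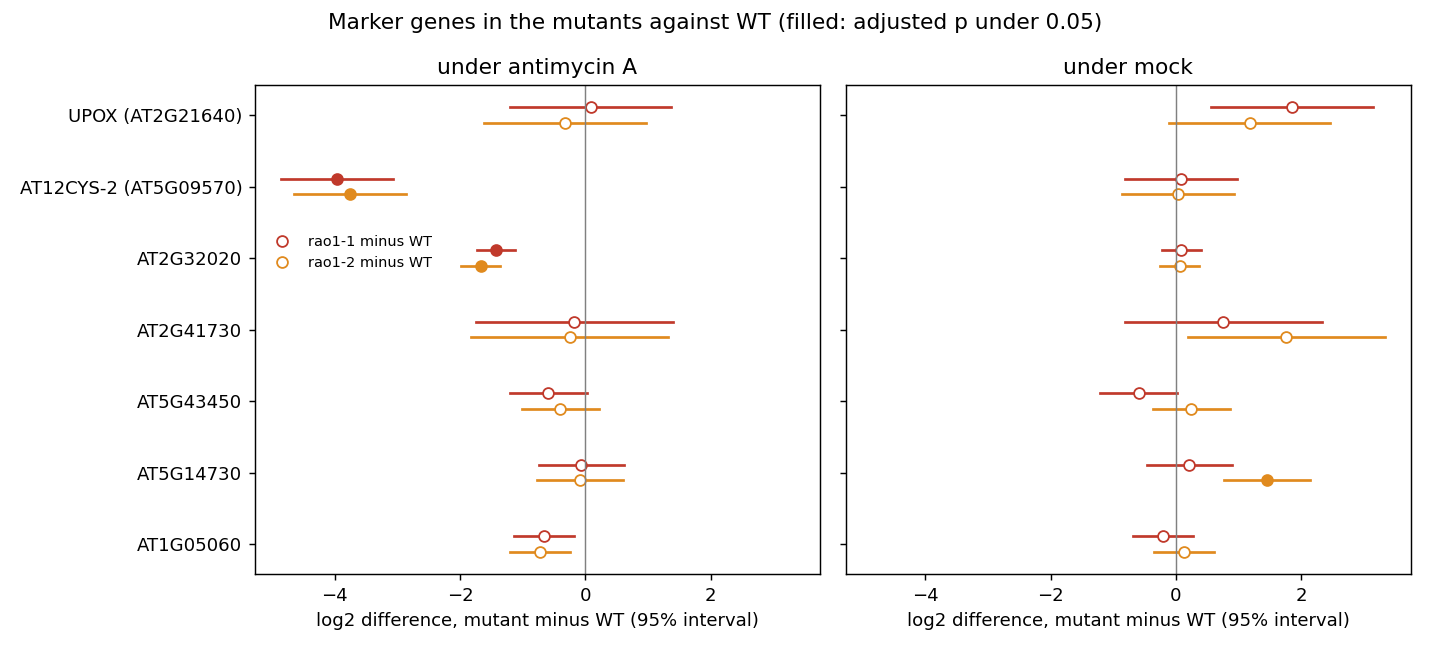
Log2 difference of each mutant from WT for the marker genes under antimycin A (left) and mock (right), with 95% intervals from limma and filled points at an adjusted p under 0.05. Under antimycin A only AT12CYS-2 and AT2G32020 are filled, below 0 in both mutants, and under mock only AT5G14730 in rao1-2, at 1.46.

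The size of the response itself was compared between genotypes by an interaction term, the mutant's change with antimycin A minus that of WT. AT12CYS-2 and AT2G32020 responded less in both mutants than in WT, and no other member was called. Over all probe sets 0.158% were called lower in rao1-1 minus WT, 0.114% in rao1-2 minus WT and 0.176% in the mean of both mutants minus WT. By an unadjusted limma p under 0.05 there were 2 of 7 members in rao1-1, against 10.8% of all probe sets. In rao1-2 there were 4 of 7, against 9.79%, and for the mean of both mutants 5 of 7, against 11.8%. The members' medians were -0.93, -1.55 and -1.47, against 0.06, 0.04 and 0.05 over all probe sets.

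For AT12CYS-2 the mean difference in log2 response of both mutants was -3.92 ± 0.51 (SE, limma adjusted p = 0.00411), with -4.05 ± 0.59 in rao1-1 (adjusted p = 0.00787) and -3.79 ± 0.59 in rao1-2 (adjusted p = 0.0176). For AT2G32020 it was -1.62 ± 0.18 (adjusted p = 0.000779), with -1.51 ± 0.20 in rao1-1 (adjusted p = 0.00474) and -1.73 ± 0.20 in rao1-2 (adjusted p = 0.00284). These values rest partly on intensities under the background limit, and their errors on the spread shared by all groups. With such intensities set to the limit, AT12CYS-2 stood at -2.45 (limma adjusted p = 0.00459) for the mean of both mutants. AT2G32020 then stood at -1.55 (adjusted p = 0.000405), and all calls of both genes held. That setting gives every AT12CYS-2 array outside WT with antimycin A the same value, and likewise every mock array of AT2G32020. It removes the spread within those groups, so these adjusted p-values are no independent support for the calls. The rao1-2 call of AT12CYS-2 was lost without replicate 2 of rao1-2 with antimycin A (adjusted p = 0.0525), without replicate 3 of WT with antimycin A (adjusted p = 0.0574) and with only the arrays compared in the fit (adjusted p = 0.11).

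For the other members the mean difference of both mutants ranged between -0.32 and -1.63. UPOX had -1.63 (95% interval -3.21 to -0.06, adjusted p = 0.406) and AT2G41730 had -1.47 ± 0.90 (adjusted p = 0.577). AT5G14730 had -0.28 in rao1-1 (adjusted p = 0.82) and -1.55 in rao1-2 (adjusted p = 0.27). Its mean difference was -0.91 (95% interval -1.75 to -0.07, adjusted p = 0.379). That of AT1G05060 was -0.65 (95% interval -1.24 to -0.06, adjusted p = 0.37). With replicate 1 of rao1-2 mock left out, more members were called in rao1-2, with the values given under the mock comparison.

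Without antimycin A, 1 member was called in rao1-2 and none in rao1-1. AT5G14730 was 2.75-fold higher in rao1-2 mock than in WT mock (log2 difference 1.46 ± 0.32 SE, limma adjusted p = 0.0395), at 138 ± 93.4 in rao1-2 and 43.7 ± 4.28 in WT (SD, n = 3 arrays each). Over all probe sets 0.633% were called higher in rao1-2 than in WT under mock and 1.37% in either direction, and 4.04% were called in either direction in rao1-1. At an unadjusted p under 0.05 there were 1 of 7 members in rao1-1 and 2 of 7 in rao1-2, against 16.7% and 13.5% of all probe sets. In rao1-2 these were AT5G14730 and AT2G41730, the second at 912 ± 855 in rao1-2 mock and 189 ± 138 in WT mock with overlapping arrays (log2 difference 1.76 ± 0.73, adjusted p = 0.297). In rao1-1 it was UPOX, at 160.2 ± 50.4 in rao1-1 mock and 45.2 ± 17.1 in WT mock, 3.61-fold higher without overlap (log2 difference 1.85 ± 0.60, adjusted p = 0.11). In rao1-2 mock it averaged 135 ± 117 and overlapped WT (1.18, adjusted p = 0.431).

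The call of AT5G14730 lay close to the threshold. It was made under 5 of 9 other settings, with adjusted p between 0.0246 and 0.401, and in 3 of 18 fits that left out 1 array, with adjusted p between 0.00586 and 0.123. The lone array that mattered most for the other members was replicate 1 of rao1-2 mock, which also had the lowest correlation with its group. Of the 5 members with any mock array above the background limit, 1 lay above the range of the WT mock arrays and 1 below it on that array, against 4 above and 0 below on replicate 2 and 5 above and 0 below on replicate 3 of rao1-2 mock. On the rao1-1 mock arrays 1, 2 and 2 of the 5 lay above the range and 2, 1 and 1 below it, for replicates 1, 2 and 3. The share of all probe sets outside the WT mock range is not given here. These counts therefore do not tell whether the members differ from other probe sets on these arrays.

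Without replicate 1 of rao1-2 mock, 4 members were called higher in rao1-2 than in WT under mock: UPOX (log2 difference 2.02, adjusted p = 0.021), AT2G41730 (2.92, adjusted p = 0.00256), AT5G43450 (0.71, adjusted p = 0.0192) and AT5G14730 (1.79, adjusted p = 0.00586). In rao1-1 mock, in the same fit, UPOX was called at 1.85 (adjusted p = 0.0198) and AT5G43450, which was lower than in WT, at -0.60 (adjusted p = 0.0282). Both log2 differences were the same as with all arrays. The array left out belongs to neither group and enters these comparisons only through the shared spread. Over all probe sets 1442 (6.34%, of which 652 were higher) were then called in rao1-2 mock, against 312 with all arrays. In rao1-1 mock 1207 (5.31%) were called in either direction, against 918. The difference in response of rao1-2 was then called for 5 members, adding AT2G41730 (-3.17, adjusted p = 0.0209), AT5G43450 (-1.11, adjusted p = 0.0244) and AT5G14730 (-1.88, adjusted p = 0.0451). Calls over all probe sets then numbered 324 (1.42%, of which 159 were lower), against 45 with all arrays. In rao1-1 against WT under antimycin A, AT5G43450 was then called as well, at an unchanged log2 difference (-0.59, adjusted p = 0.0342).

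Replicate 3 of rao1-2 mock was the array with the highest members and also the one with the lowest root marker signal. Its summed level of the 3 root markers was 62.11, nearly all of it PYK10, against 549.9 and 797.4 on the other rao1-2 mock arrays, 761.3 to 1474 in rao1-1 mock and 668.9 to 1001 in WT mock. Without it AT5G14730 remained called at 0.94 (adjusted p = 0.0248), UPOX stood at 0.46 (adjusted p = 1) and AT2G41730 at 0.89 (adjusted p = 0.837) in rao1-2 against WT under mock. The part of root tissue in these values was not tested. Leaving out this array also gave a call of UPOX in rao1-1 against WT under mock, at an unchanged 1.85 (limma adjusted p = 0.0467). The within-group SD of log2 intensity over all groups was 0.951 for AT2G41730, larger than for 98.9% of probe sets, and 0.779 for UPOX, larger than for 97.7%, against a median of 0.177.

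**Figure D4:**
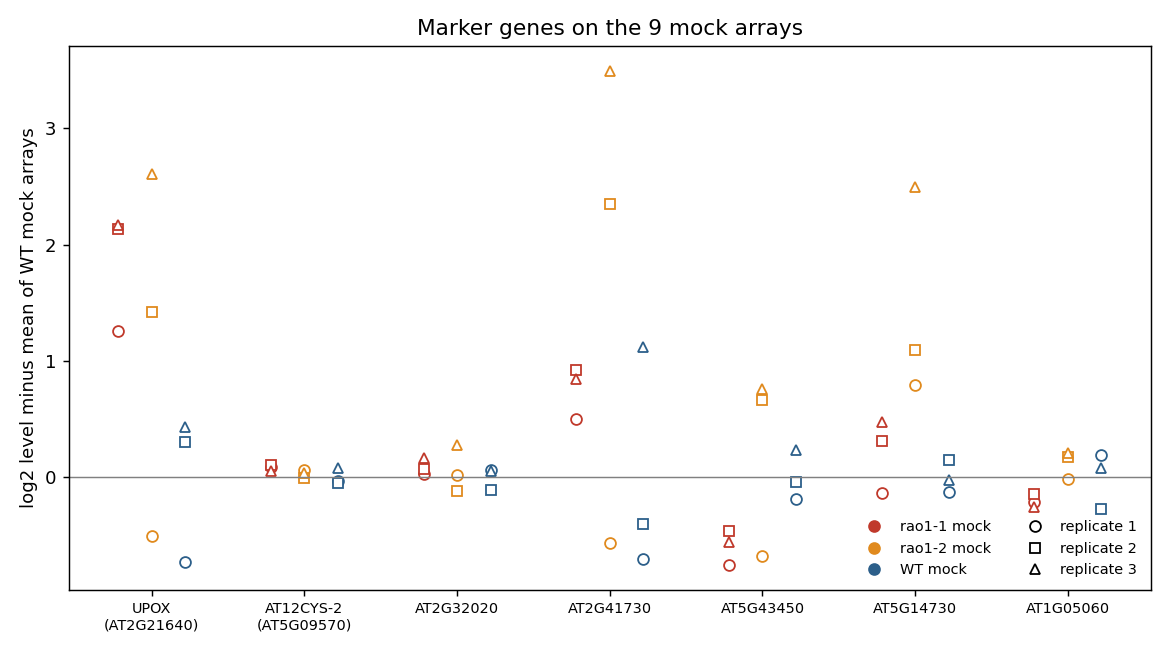
Log2 level of each marker gene on the 9 mock arrays minus the mean of the 3 WT mock arrays, with colours for genotype and symbols for replicate number. Replicates 2 and 3 of rao1-2 lie above WT for UPOX, AT2G41730, AT5G43450 and AT5G14730, while its replicate 1 lies within or below the WT range for all of these but AT5G14730.

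The 2 mutants were also set against each other. In rao1-2 against rao1-1, no member was called under antimycin A or under mock by limma, and over all probe sets 0.101% and 0.145% were called. At an unadjusted p under 0.05 there were 0 of 7 members under antimycin A, against 9.11% of all probe sets, and 2 of 7 under mock, against 5.61%. The 2 were AT5G14730 (log2 difference 1.24 ± 0.32, adjusted p = 0.285) and AT5G43450 (0.84 ± 0.28, adjusted p = 0.583). Without replicate 1 of rao1-2 mock, AT2G41730 (2.17, adjusted p = 0.0371), AT5G43450 (1.31, adjusted p = 0.0016) and AT5G14730 (1.58, adjusted p = 0.0329) were called higher in rao1-2 than in rao1-1 under mock, beside 185 probe sets in all (0.813%, of which 126 were higher), against 33 with all arrays. For AT2G32020 after antimycin A the log2 difference was -0.24 ± 0.14 (95% interval -0.55 to 0.06, adjusted p = 0.671).

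In the order of group means, all 7 members had their 3 antimycin A groups above their 3 mock groups. For AT12CYS-2 only WT with antimycin A lay above the background limit, so the order of its other groups has no weight. WT with antimycin A was highest for 6 of the 7, and rao1-1 for UPOX, where the 3 antimycin A groups overlapped with their neighbours in the order. For AT2G32020 the order under antimycin A was rao1-2 below rao1-1 below WT, with no overlap between neighbours. The lowest group was WT mock for UPOX, AT2G41730 and AT5G14730 and rao1-1 mock for AT5G43450 and AT1G05060, while AT12CYS-2 and AT2G32020 were under the background limit in every mock group and have no order there. Among those 5, neighbouring mock groups overlapped except AT5G43450 between WT and rao1-1, and AT5G14730 between rao1-2 and rao1-1.

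Other genes of the same response were listed alongside. Of 14 genes written down, 6 were measured by a probe set naming them, and the rest, AOX1A among them, were not analysed here. With antimycin A 6 of 6 were called higher in rao1-1, 4 of 6 in rao1-2 and 6 of 6 in WT, with median log2 changes of 2.99, 2.55 and 5.15. Over all probe sets 15.8%, 15.6% and 14.4% were called higher, in the same order. The rao1-1 count includes NDB4, which passed the background limit on 1 of 3 rao1-1 antimycin A arrays and averaged less than the limit there, so that no rise above background was shown for it. AT2G04050, a transporter of the MATE family, rose at least 110.6-fold in rao1-1. In rao1-2 the bound was 126.8-fold, and in WT it was 210.2-fold. NDB2 (AT4G05020), an external NAD(P)H dehydrogenase of the inner mitochondrial membrane, had log2 changes of 2.62, 1.80 and 3.37 in the same order, all called.

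NDB4 (AT2G20800), another external dehydrogenase of this list, was above the background limit on all 3 WT antimycin A arrays and on 1 mutant array. With antimycin A it read 3.303, 26.61 and 16.30 in rao1-1, 8.201, 3.078 and 4.006 in rao1-2, and 41.83, 112.0 and 86.48 in WT, and it lay under the background limit on every mock array. NDB4 with antimycin A was lower than in WT in rao1-1 (log2 difference -2.71 ± 0.59, limma adjusted p = 0.0246) and at least 3.73-fold lower in rao1-2 (-3.99 ± 0.59, adjusted p = 0.00411). It was the 1 gene of the 6 called there, where 1.49% of all probe sets were called lower in rao1-1 and 1.12% in rao1-2. Its difference in response for the mean of both mutants was not called (-3.37 ± 0.73, adjusted p = 0.0724). Regulators of retrograde signalling were listed too, but 0 of the 11 had a probe set naming them, and they were not analysed here.

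Of 5 relatives listed 4 were measured, and they did not all follow the members. AT1G68440 rose in all genotypes, 9.28-fold in rao1-1 (limma adjusted p = 6.15e-05), 9.66-fold in rao1-2 (adjusted p = 4.51e-05) and 17.3-fold in WT (adjusted p = 7.08e-06). In WT mock it was above the background limit on 2 of 3 arrays, and the value under the limit enters as measured. AT12CYS-1 (AT5G64400), the close homologue of AT12CYS-2, was bright in every group and fell by 0.35 on the log2 scale in rao1-2 (adjusted p = 0.00342) and by 0.25 in WT (adjusted p = 0.0274), with -0.15 in rao1-1 (adjusted p = 0.168). AT2G32030, a related acetyltransferase gene next to AT2G32020 on chromosome 2, rose in all genotypes, 99.3-fold in rao1-1, 32.1-fold in rao1-2 and 127.2-fold in WT. Above the background limit lay 2 of 3 mock arrays in rao1-1, 3 of 3 in rao1-2 and 1 of 3 in WT. Values under it enter these folds as measured. Levels of AT2G32030 after antimycin A were not called different from WT in rao1-1 (log2 difference -0.64, limma adjusted p = 0.547) or rao1-2 (-0.93, adjusted p = 0.571). Every mutant antimycin A array nonetheless lay below every WT one. The 95% intervals ran from -1.955 to 0.669 in rao1-1 and from -2.242 to 0.382 in rao1-2. They rest on the spread shared by all groups. The SD of log2 intensity under mock was 1.12 in rao1-1, 0.76 in rao1-2 and 1.34 in WT, against 0.09, 0.15 and 0.35 with antimycin A. AT5G43440, the oxygenase gene next to AT5G43450 on chromosome 5, had log2 changes of 0.32 in rao1-1 (adjusted p = 0.00532), 0.25 in rao1-2 (adjusted p = 0.0199) and 0.06 in WT (adjusted p = 0.688), against 3.50 or more for AT5G43450 itself. Of the 14 genes next to the members on either side, 5 were measured and 2 rose in WT, AT2G32030 and AT5G43460 (log2 change 1.13 ± 0.10, adjusted p = 1.07e-06). Over all probe sets 14.4% were called higher in WT.

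**Figure D5:**
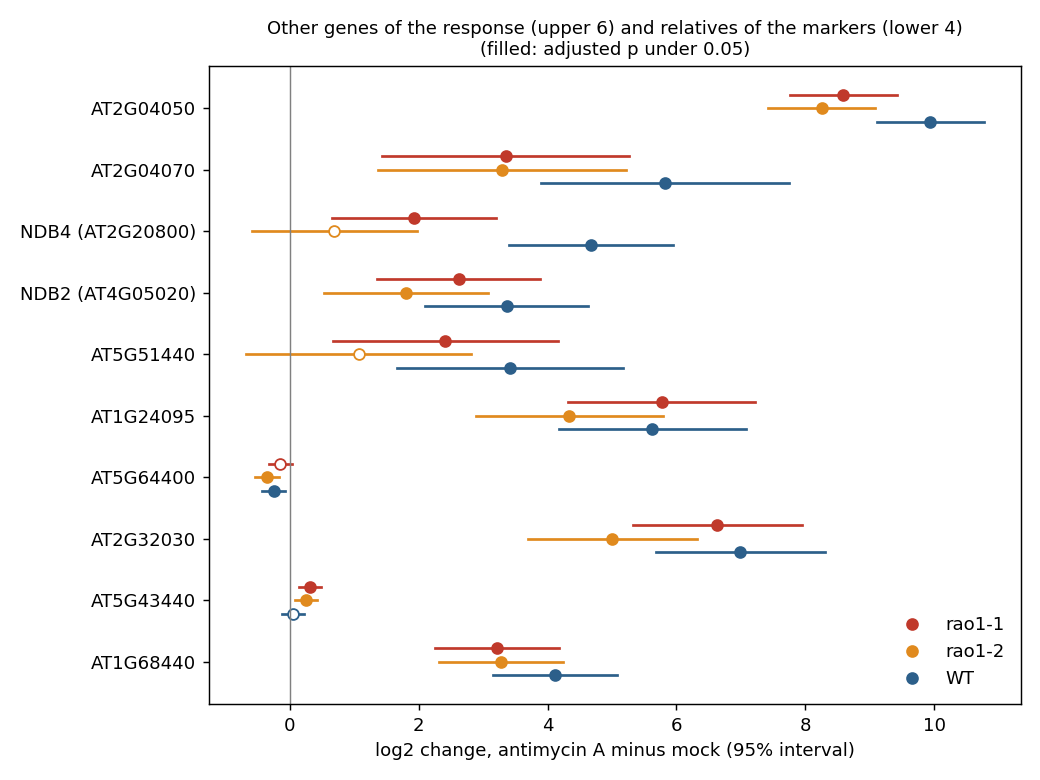
Log2 change with antimycin A over mock, with 95% intervals from limma, for 6 other genes of the mitochondrial dysfunction response and, below them, 4 relatives of the marker genes, in rao1-1, rao1-2 and WT (filled at an adjusted p under 0.05). NDB4 is at 1.93 in rao1-1, 0.70 in rao1-2 and 4.68 in WT, while AT5G64400 and AT5G43440 stay within 0.35 of 0 in all genotypes. Values of AT2G04050, AT2G04070, NDB4, AT1G24095, AT2G32030 and AT1G68440 under the background limit enter as measured.

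The members differed in how closely they followed one another over the 18 arrays. These arrays fall into an antimycin A and a mock cluster, and the correlations are given as a description. Pearson's r of a member with the mean scaled profile of the other 6 was 0.977 for AT2G32020 and AT5G43450, 0.960 for AT5G14730, 0.955 for AT2G41730, 0.936 for UPOX, 0.917 for AT1G05060 and 0.637 for AT12CYS-2. Of 13348 other named genes compared with the members' mean profile, 242 had an r of at least 0.95. The 5 highest were AT1G74870 (0.991), AT4G17260 (0.988), AT1G64610 (0.985), AT1G78340 (GSTU22, a glutathione transferase, 0.985) and AT5G44990 (0.984). AT1G74870 averaged 737.4 in rao1-1, 689.3 in rao1-2 and 2911 in WT with antimycin A.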

How the data were processed

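Intensities of 18 Affymetrix ATH1 arrays were used as the authors deposited them, normalized and on a linear scale. Per the submitters' processing notes RMA and GCRMA were used; the notes do not tie the deposited intensity values to either. Both methods equalise the arrays, so changes are relative to the bulk of probe sets. Of 22810 probe sets, 64 controls were left out, and a gene was named where the platform annotation gave 1 gene (13513 probe sets, 13436 matched to RefSeq, TAIR10.1, names and neighbour order only). No build is named, and no coordinates or sequences are given.

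The log2 of each value, with no pseudocount, was fitted with limma 3.58.1 (lmFit and eBayes, R 4.3.3), a mean for each of the 6 groups, two-sided, with Benjamini-Hochberg adjustment over 22746 probe sets. Intervals are 95%. The procedure was tested on simulated data in which each probe set had the same spread in every group. That test does not cover genes whose spread differs between groups, as for AT12CYS-2 and AT2G41730. The background limit, log2 4.31, was set after the values were seen. For a dim group, values under it were set to it to give a bound. The number of arrays limits the precision.

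The members and lists were chosen with earlier results of these data known. Named genes were all 7 members, the measured genes of 3 written lists (14 other genes of the response, 11 regulators, 5 relatives), and the 5 genes with the most similar profile. The neighbours on the chromosome were added after seeing the data. Alternatives were 3 array scalings, values set to the limit, log2(value + 16), a filter on dim probe sets, fits of only the arrays compared, a trended robust eBayes, a replicate block and leaving out each array.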

Additional observations from a re-analysis of the deposited data

Results flagged for a closer look

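The response to antimycin A differed between genotypes, by the interaction term of the limma fit, for 2 of the 7 marker genes. AT5G09570 (AT12CYS-2) differed by -4.05 on the log2 scale in rao1-1 minus WT, -3.79 in rao1-2 minus WT and -3.92 in the mean of both mutants minus WT, and in the mutants it did not pass the background limit on any array. Of the groups behind these values only WT with antimycin A lay above the limit, so their exact size is unreliable, and with values under the limit set to it all 3 were -2.45. AT2G32020 differed by -1.51, -1.73 and -1.62 in the same comparisons, from a response that was called in all 3 genotypes, and by -1.43, -1.67 and -1.55 with values set to the limit. Both mutants share the WT arrays, so these values are not independent of one another.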

How the results depend on the processing

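Of 756 member values under the 9 other settings, 742 kept their direction and their side of the threshold, 9 lost a call and 5 changed sign. Of 1512 with 1 array left out, 1461 kept both, 19 lost a call, 15 gained one and 17 changed sign. The number of members called in rao1-2 against WT under mock was 0, in place of 1, with arrays centred on the poly(A) controls, with values set to the background limit, with log2(value + 16) and with only the arrays compared in the fit. With only the arrays compared, 1 member was called in place of 2 in rao1-1 against WT under antimycin A, in rao1-2 against WT under antimycin A and in the difference in response of rao1-2. In such fits fewer arrays estimate the spread, and the spread of the groups left out does not enter. Leaving out 1 array gave 0 to 4 members in rao1-2 against WT under mock, 0 to 2 in rao1-1 against WT under mock, 1 to 5 in the difference in response of rao1-2, 0 to 3 in rao1-2 against rao1-1 under mock, 5 to 6 in the response of rao1-2 and 2 to 3 in each mutant against WT under antimycin A. The upper ends of the mock and difference counts came without replicate 1 of rao1-2 mock, and the cause was not tested. None of the values that changed sign was called. The difference in response of AT5G43450 in rao1-1 was -0.211 with hybridisation controls, -0.03 with quantile normalization and -0.008 with log2(value + 16), and rao1-2 against rao1-1 under mock was 0.001 for AT5G09570 and 0.028 for AT2G32020 with poly(A) controls. With 1 array left out, log2 differences that crossed 0 ranged as follows. In rao1-2 against WT under mock they ran from -0.047 to 0.148 for AT2G32020, -0.008 to 0.712 for AT5G43450 and -0.013 to 0.219 for AT1G05060. Against WT under antimycin A they ran from -0.207 to 0.253 for AT2G21640 and -0.142 to 0.027 for AT5G14730 in rao1-1, and from -0.149 to 0.013 for AT5G14730 in rao1-2. The difference in response of AT5G43450 in rao1-1 ran from -0.121 to 0.097. In rao1-2 against rao1-1 they ran from -1.393 to 0.165 for AT2G21640 and -0.133 to 0.062 for AT2G32020 under mock, and from -0.369 to 0.524 for AT5G09570, -0.089 to 0.072 for AT5G14730 and -0.182 to 0.131 for AT1G05060 under antimycin A. With the replicate number as a block, no member's call changed, the member counts were 7 in WT, 6 in each mutant, 0 and 1 in rao1-1 and rao1-2 under mock and 2 in each comparison with WT under antimycin A and each difference in response, and the difference of AT2G32020 for both mutants was -1.62 (adjusted p = 0.00167). Deviations of same-numbered arrays from their group means had a median correlation of 0.152, above 0.1 in 27 of 45 pairs, against -0.093 and 20 of 90 pairs for different numbers. This hints at some sharing by number, but not every same-numbered pair was above 0.1 (lowest -0.341), so the block was kept as an alternative. Over all probe sets, centring on the poly(A) controls shifted the median log2 response by -0.22 in WT, -0.21 in rao1-1 and -0.27 in rao1-2, and the share of calls that were higher was then 21.7%, 24.8% and 21.3%, against 33.4%, 38.9% and 36.4%. With only the arrays compared, the probe sets called numbered 58, against 743 with all arrays, in rao1-1 against WT under antimycin A and 109, against 560, in rao1-2. Centring on the hybridisation controls moved the share of calls that were higher to 22.8% and 26.7% for the responses of rao1-1 and rao1-2, to 82.5% and 77.5% (against 45.6% and 46.2%) for their differences from WT under mock, and to 16.1% (against 55.6%) for the difference in response of both mutants, while the members' calls changed only for AT1G05060 in the response of rao1-2. With only the arrays compared, 14 probe sets were called in rao1-2 against WT under mock, against 312 with all arrays.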
